A study of Homo sapiens with 6 samples.

Results

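The genes described here are the sensors of the unfolded protein response, the transcription factor XBP1, the CREB3-type relatives of ATF6 and the proteases that release them. They were chosen by name and comprise 10 genes: the kinases ERN1 (IRE1α) and EIF2AK3 (PERK), ATF6 and ATF6B, XBP1, CREB3, CREB3L1, CREB3L2, and the proteases MBTPS1 and MBTPS2. Each was found as a locus of the authors' deposited tables, which hold 61695 loci in the count tables, 63707 in the FPKM gene table and 274669 transcripts. Of the 10 genes, 9 had counted reads, and XBP1 was measured in the FPKM tables alone.

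Messenger RNA came from EndoC-βH1, a beta cell line made from human fetal pancreas by immortalisation, so all libraries are of 1 line. In every library, 75000 cells per well adhered for 24 h in serum-free medium with 11 mM glucose. The 3 cytokine libraries came from cells kept for 24 h with IL-1β at 5, TNF-α at 10, IFN-γ at 50 and IL-17 at 100 ng/ml, and the 3 control libraries received none. The sample labels place the controls before exposure, whereas the extraction protocol describes untreated cells kept for those 24 h, so an effect of time in culture cannot be told apart from one of the cytokines. The deposited tables give 1 value per group and the error of the authors' fit, with no value for a single library.

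The endoplasmic reticulum folds secreted proteins, and in beta cells most of that load is proinsulin. When unfolded protein accumulates, IRE1α cuts the XBP1 messenger so that it encodes an active transcription factor, PERK phosphorylates the initiation factor eIF2α and slows translation, and ATF6 travels to the Golgi. There the site-1 protease MBTPS1 and the site-2 protease MBTPS2 cut ATF6 in turn and free its DNA-binding part. CREB3, CREB3L1 and CREB3L2 are membrane-bound factors released by the same pair of proteases.

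Of these mechanisms, the cut in XBP1 leaves a trace in the sequence of the messenger, and it is shown first because the transcript results below turn on it. In GENCODE release 44 the transcripts ENST00000216037 (1850 bases) and ENST00000344347 (1791 bases) differ inside the coding sequence by a segment of 26 bases. The first encodes 261 codons and corresponds to the unspliced form. The second encodes 376 codons and corresponds to the spliced form, since removing 26 bases shifts the reading frame. Below, the capitals mark the segment, bases 570 to 595 of ENST00000216037 (hg38 chr22:28796124-28796149, minus strand), with the coding sequence on either side in lower case.
unspliced form: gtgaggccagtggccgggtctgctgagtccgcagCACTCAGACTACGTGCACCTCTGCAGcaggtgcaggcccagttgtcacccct
spliced form: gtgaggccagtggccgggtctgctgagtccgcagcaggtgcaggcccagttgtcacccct
The placement follows the IRE1α loop motif CNGCNGC, searched on the transcript strand, with a cut after its sixth base. The motif matched at 7 positions of ENST00000216037, of which CCGCAGC at base 564 and CTGCAGC at base 590 flank the segment. Because the bases at its ends repeat, 7 placements of the 26 bases give the same spliced product, and the annotation places it 4 bases further upstream.

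A second sequence concerns how XBP1 itself is switched on. The endoplasmic reticulum stress element (ERSE), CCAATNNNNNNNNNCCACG, is the classical site at which ATF6 acts together with the CCAAT-binding factor NF-Y. It was searched on both strands of 300-base RefSeq promoter windows (GRCh38.p14), and it contains a CCAAT box by construction. All 10 genes matched this table, with 12 windows. The motif was found in 27 of 35116 windows, or 0.0769%. Among the 12 it was found once, in XBP1, at positions -52 to -34 from the RefSeq start site. The stretch of 84 bases that holds it (GRCh38 chr22:28800598-28800681, minus strand) is printed with the element in capitals. The stretch ends just before the first base of XBP1 in GENCODE, which lies upstream of the RefSeq start site.
XBP1 promoter: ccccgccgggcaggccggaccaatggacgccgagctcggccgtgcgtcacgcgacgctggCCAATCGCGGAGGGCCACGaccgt
The same element stands in the promoters of chaperone genes whose changes are given further on. Here the capitals mark the fixed letters of the motif.
XBP1: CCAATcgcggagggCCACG
HSP90B1: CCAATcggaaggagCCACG
HSP90B1, second match: CCAATcgcgccgcaCCACG
CALR: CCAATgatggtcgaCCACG
CRELD2: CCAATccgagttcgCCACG
PDIA6: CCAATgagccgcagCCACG
The core of the XBP1-binding element, TGACGTG, was found in 1.97% of all windows and in none of the 12. The interferon-γ-activated site TTCNNNGAA was found in 7.66% of all windows and in none of the 12. The cAMP response element TGACGTCA, a palindrome, was found in 1.85% of all windows and in 1 of the 12, that of CREB3L2, at positions -179 to -172. These matches describe the letters in the windows only.

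Exposure to cytokines went with higher messenger of both stress kinases, of XBP1 and of all 3 CREB3-type factors. The values of ATF6, ATF6B, MBTPS1 and MBTPS2 lay within 10% of control in the authors' deposited count table. There, 8 of the 9 counted genes had an adjusted p under 0.05, 5 of them higher and 3 lower, and after centring on the median of abundant loci 5 were higher and 1 lower. Among all 30206 loci tested there, 37.7% passed, 18.0% as higher and 19.7% as lower. Abundance matters for these shares: of the 7868 tested loci with a mean of at least 1000 normalized counts, 78.2% passed in the authors' deposited table, 32.9% as higher and 45.3% as lower. Of the 7 counted genes at that abundance, 6 passed, so the number of calls is near the background and the sizes of the changes carry the description. The median log2 fold change was 0.38 over the 9 counted genes, against 0.05 over all tested loci of the deposited table. Over the 7 abundant genes it was -0.06, the same to 2 decimals as the -0.06 over all abundant loci of that table. The middle of these 7 therefore does not stand apart. They leave out CREB3 and CREB3L1, which were less abundant, and XBP1, which had no counted reads, all of them higher. In the authors' deposited Cuffdiff gene table, 6 of the 10 genes had a q under 0.05 and all 6 were higher, against 35.7% of tested genes overall (17.8% higher and 17.9% lower). No gene of the 10 passed as lower by Cuffdiff at that q, and 1, ATF6B, had an unadjusted p under 0.05. Whether the 3 libraries of a group were separate cultures is not stated in the labels, so the p-values reflect a spread among libraries that may be technical.

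**Figure D1:**
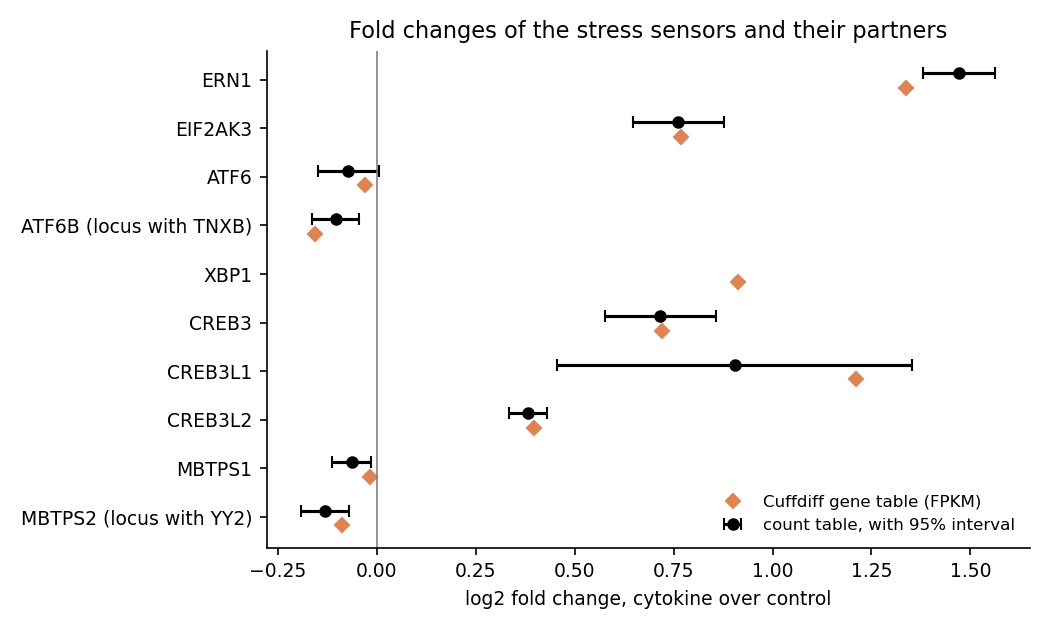
Log2 fold change of cytokine over control for each of the 10 genes. Black circles are the count table with 95% intervals from the authors' standard error (3 against 3 libraries), and orange diamonds are the Cuffdiff gene table, which gives no error. ERN1 lies farthest to the right at 1.47, and XBP1 has only a Cuffdiff value, 0.91.

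ERN1 encodes IRE1α, the kinase and RNase that cuts XBP1 (chr17:64039080-64130819, minus strand). The authors' deposited count table implies group means of 998 normalized counts in control and 2768 with cytokines. This was a log2 fold change of 1.47 ± 0.05 (SE, 3 against 3 libraries), or 2.77-fold with a 95% interval from 2.60 to 2.95, with an adjusted p of 1.33e-220 in the authors' deposited table. Of all 10 genes it had the largest change in both deposited gene tables. Only 3.01% of tested loci with a mean of at least 1000 counts in the deposited table rose by as much or more. In the deposited FPKM table its level went from 4.11 to 10.4 FPKM (log2 fold change 1.34, q = 0.000232, the smallest q found among these genes).

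Both ERN1 transcripts that reached 1 FPKM passed the threshold of the authors' deposited isoform table, where 9.87% of 95649 tested transcripts passed, 5.17% as higher and 4.70% as lower. The longer, ENST00000433197 (7895 bases, protein-coding), went from 2.07 to 6.52 FPKM in the deposited isoform table, a log2 fold change of 1.66. The shorter, ENST00000606895 (4717 bases, protein-coding), went from 1.64 to 3.11 FPKM there, a log2 fold change of 0.93. The longer form made up 50.3% of the locus in control and 62.9% with cytokines by these deposited values, a description with no test of the difference. Antisense long noncoding RNAs overlap ERN1 in GENCODE. How the counting treated strand is unknown from the labels, so reads from either strand may be in the value. The same holds for EIF2AK3, CREB3, CREB3L2 and MBTPS2, which also overlap genes or pseudogenes on the opposite strand.

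EIF2AK3 encodes PERK (chr2:88556741-88691518, minus strand). Its implied group means in the authors' deposited count table were 873 and 1481 normalized counts. The log2 fold change was 0.76 ± 0.06 (SE), or 1.70-fold (95% interval 1.57 to 1.84), with an adjusted p of 3.28e-37 in the authors' table. The deposited FPKM table gave a close value, from 7.46 to 12.7 FPKM, a log2 fold change of 0.77 (q = 0.000232). All 3 of its transcripts that reached 1 FPKM had higher values with cytokines, and 2 of them passed. These were the full-length coding transcript ENST00000303236, from 4.34 to 6.92 FPKM (q = 0.000833), and ENST00000419748, from 1.28 to 3.05 FPKM (q = 0.0272), in the authors' deposited isoform table. ENST00000470706, with no defined coding sequence, stood at 1.26 and 2.51 FPKM and did not pass (q = 0.486).

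ATF6 (chr1:161766298-161977574, plus strand), the sensor that is itself a transcription factor, did not pass. The authors' deposited count table implies 2999 normalized counts in control and 2853 with cytokines, a log2 fold change of -0.07 ± 0.04 (SE) with an adjusted p of 0.148 by the authors' test. Its 95% interval in fold ran from 0.903 to 1.00, so a rise of the size seen for the kinases lies outside it. Its main transcript, ENST00000367942, held 91.1% of the locus in control and stood at 8.03 FPKM in both groups of the deposited isoform table. ATF6B, the related factor on chromosome 6 (chr6:32115264-32128253, minus strand), shares its counted locus with TNXB on the same strand, so its value belongs to both genes. This locus had implied means of 4628 and 4306 normalized counts in the authors' deposited table. Its log2 fold change of -0.10 ± 0.03 (SE) passed there, with an adjusted p of 0.00239 by the authors' test, but not in the deposited Cuffdiff table, where it went from 46.4 to 41.6 FPKM (q = 0.108). Centring the fold changes on abundant loci, whose median was -0.06, left ATF6B at -0.05 and not past the threshold, with an adjusted p of 0.241 from the authors' SE. The main coding transcript ENST00000375203 stood at 23.7 FPKM in control and at 22.6 FPKM after cytokines in the deposited isoform table (q = 0.848). Other ATF6B transcripts with larger apparent shifts did not pass either, such as ENST00000468502, which stood at 5.72 and 0.845 FPKM (q = 0.39) in the deposited isoform table.

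XBP1 (chr22:28794555-28800597, minus strand) had 0 counted reads in the authors' deposited count table. It was nevertheless the most abundant of the 10 genes per length in the deposited FPKM table, where the control value of 113 FPKM exceeded that of 96.9% of tested genes. With cytokines the authors' deposited table gave 213 FPKM, 1.88-fold higher (log2 0.91, q = 0.000232), with no standard error given. The absence of counted reads was not particular to XBP1. Of 8240 loci with at least 10 FPKM in a group, 56 had no counted read in the deposited count table. The authors' FPKM table places XBP1 in a bundle of 19 loci (hg38 chr22:28687742-29300525) that were processed together, among them CHEK2, EMID1, EWSR1 and a locus of several names that include CCDC117, ZNRF3 and KREMEN1. That last locus had 5749 mean normalized counts and a log2 fold change of -0.27 in the authors' deposited count table. Where the reads of XBP1 went in the counting was not tested.

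The transcripts of XBP1 did not change by the same factor. ENST00000216037, the unspliced form printed above, went from 104 to 161 FPKM in the authors' deposited isoform table (log2 0.63, q = 0.000833). An assembled transcript of the locus without a gene name went from 6.46 to 43.7 FPKM there, 6.77-fold higher (log2 2.76, q = 0.000833). In the deposited table the named unspliced form made up 91.9% of the locus in control and 75.5% with cytokines, and the assembled transcript 5.70% and 20.5%. The difference between groups at the locus was 99.96 FPKM, of which 56.9% lay in ENST00000216037 and 37.3% in the assembled transcript, by the deposited values. These shares are descriptions, and the shift between transcripts was not tested. The annotated spliced form ENST00000344347 was listed at 0 FPKM in both groups of the authors' deposited isoform table. The exon structure of the assembled transcript was not analysed here, so whether it holds or lacks the 26 bases is not known from these values. Reads that do not cross those bases cannot tell the forms apart, and a listed 0 is the estimate of the authors' tool.

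The remaining XBP1 transcripts were low and none passed. ENST00000403532 stood at 1.08 and 2.70 FPKM and ENST00000405219 at 0.427 and 1.18 FPKM in the authors' deposited isoform table, and both contain the uncut segment. The retained-intron transcript ENST00000484256 stood at 1.12 and 3.56 FPKM there, and ENST00000482720 at 0.0905 and 1.08 FPKM. Without the assembled transcript, the named XBP1 transcripts summed to 107 FPKM in control and to 169.7 FPKM after cytokines in the deposited table, 1.59-fold higher.

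**Figure D2:**
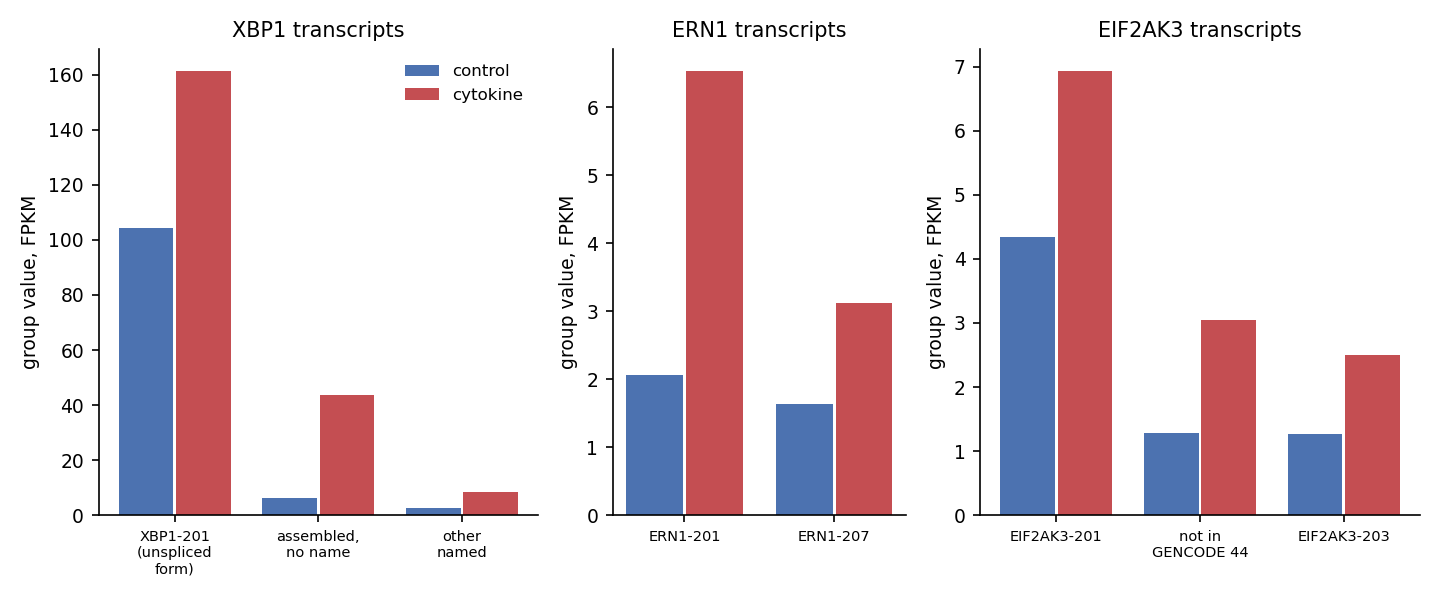
Group values of the authors' isoform table in FPKM (bars from 0, linear axes that differ between panels) for transcripts of XBP1, ERN1 and EIF2AK3, control in blue and cytokine in red. The deposited table gives no error per transcript. The assembled XBP1 transcript goes from 6.46 to 43.7 FPKM beside a change from 104 to 161 FPKM in the unspliced form.

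The 3 CREB3-type factors were all higher, at very different levels. CREB3 (chr9:35732598-35736999, plus strand), which acts on Golgi and secretory genes, had implied means of 534 and 877 normalized counts in the authors' deposited count table. This was a log2 fold change of 0.72 ± 0.07 (SE) with an adjusted p of 2.00e-22 by the authors' test, and the deposited FPKM table gave 0.72 as well (18.9 to 31.2 FPKM, q = 0.00431). Its coding transcript ENST00000353704 went from 14.4 to 23.3 FPKM in the deposited isoform table (q = 0.0449). CREB3 overlaps GBA2 on the opposite strand.

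CREB3L2 (chr7:137874979-138002086, minus strand), a regulator of the export machinery in secretory cells, had the highest mean of the 9 over both groups, though not in control, where MBTPS1 was higher. Its implied means were 7190 and 9373 normalized counts in the authors' deposited table. Its log2 fold change was 0.38 ± 0.02 (SE), or 1.30-fold (95% interval 1.26 to 1.35), with an adjusted p of 1.42e-53 by the authors' test. ENST00000330387 carried 87.4% of the locus in control and went from 19.8 to 27.0 FPKM in the deposited isoform table (q = 0.000833). CREB3L1 (OASIS), a factor best known for collagen synthesis in bone, was scarce. Its implied means were 47.6 and 89.1 normalized counts in the authors' deposited table. Its log2 fold change of 0.90 ± 0.23 (SE) had an adjusted p of 0.000293 by the authors' test, and the 95% interval in fold was wide, from 1.37 to 2.55. Its level stayed under 1 FPKM in both groups of the deposited FPKM table, at 0.395 and 0.914 FPKM.

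The proteases that release ATF6 and its relatives were not higher in either deposited gene table. MBTPS1 (site-1 protease, chr16:84053761-84116942, minus strand) had implied means of 7957 and 7614 normalized counts. In the authors' deposited count table this was a log2 change of -0.06 ± 0.02 (SE) with an adjusted p of 0.0292 by the authors' test. MBTPS2 (site-2 protease, chrX:21839617-21885423, plus strand) is counted as 1 locus with YY2, an intronless gene inside it, and a Y RNA. That locus had implied means of 5012 and 4580 normalized counts and a log2 fold change of -0.13 ± 0.03 (SE), with an adjusted p of 8.82e-05 by the authors' test. Neither passed in the deposited Cuffdiff gene table, where MBTPS1 stood at 39.5 and 39.0 FPKM (q = 0.876) and MBTPS2 at 27.8 and 26.2 FPKM (q = 0.302). Centred on abundant loci, MBTPS1 stood at -0.01 and did not pass (adjusted p of 0.868 from the authors' SE), and MBTPS2 stood at -0.07 and passed (0.0413). Their main coding transcripts, ENST00000343411 and ENST00000379484, did not pass in the authors' deposited isoform table (q = 0.820 and q = 0.492).

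**Figure D3:**
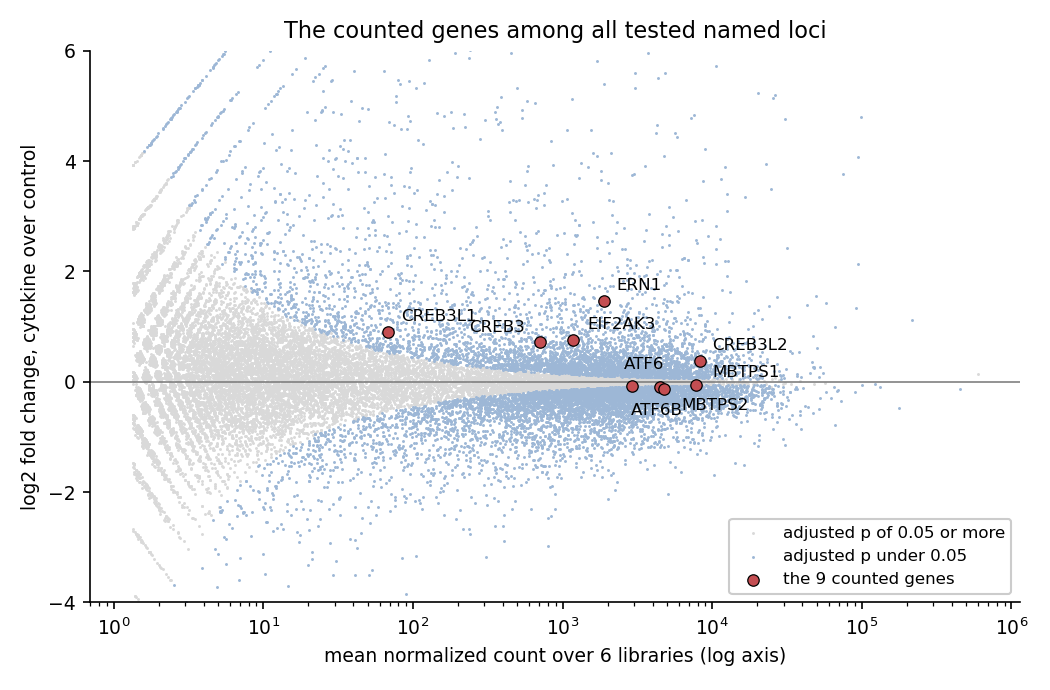
Mean normalized count over all 6 libraries (log axis) against log2 fold change for every tested named locus of the count table, with the 9 counted genes as red points. The vertical axis runs from -4 to 6 and leaves out 135 loci. ERN1, EIF2AK3, CREB3, CREB3L1 and CREB3L2 lie above 0, and ATF6, ATF6B, MBTPS1 and MBTPS2 lie close to it.

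Levels per length can be compared between the genes in the deposited FPKM table, though without a spread over libraries, so neighbours in the order were not tested against each other. In control the order was XBP1, then the ATF6B locus at 46.4, MBTPS1 at 39.5, MBTPS2 at 27.8, CREB3L2 at 22.7, CREB3 at 18.9, ATF6 at 8.81, EIF2AK3 at 7.46, ERN1 at 4.11 and CREB3L1 at 0.395 FPKM in the authors' deposited table. XBP1 stood 27.6 times above ERN1 in control and 20.6 times above it with cytokines by these deposited values. With cytokines, EIF2AK3 (12.7 FPKM) and ERN1 (10.4 FPKM) stood above ATF6 (8.63 FPKM) in the deposited table, whereas in control ATF6 was the highest of these 3. CREB3 moved from rank 6 of the 10 in control to rank 4 with cytokines. Over all 10 genes, 68 transcripts carried a member's name, 34 were tested, 8 passed as higher and 0 as lower in the authors' deposited isoform table, and none was lower with an unadjusted p under 0.05. Among all tested transcripts there, 5.17% passed as higher and 4.70% as lower, so 0 lower among 34 is near the share.

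**Figure D4:**
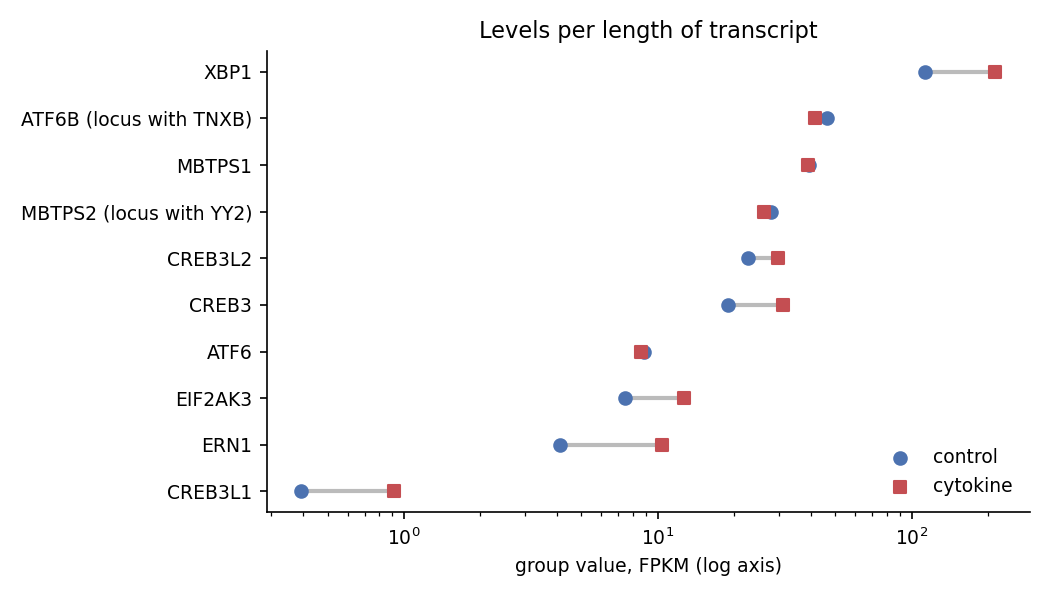
Group values in FPKM on a log axis for each gene, control as blue circles and cytokine as red squares, ordered by the control value. XBP1 runs from 113 to 213 FPKM at the top and CREB3L1 stays under 1 FPKM at the bottom.

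Genes downstream of the sensors were counted in 8 lists drawn up from textbook roles, with earlier results of these data known. The lists hold 101 tested loci in all, of which 68 were higher and 17 lower in the authors' deposited count table. Their median log2 fold change was 0.34, against 0.05 over all tested loci and -0.06 over loci with a mean of at least 1000. Of the 101, 88 had a mean of at least 1000, so the counts below stand beside the shares among abundant loci of the deposited table, 32.9% higher and 45.3% lower, as well as those among all tested loci, 18.0% and 19.7%. Some genes stand in more than 1 list. Some share a counted locus with other names, among them HSP90B1, PDIA6, SYVN1, SEC31A, SEC31B, CREBZF, GOLGA3, ARFGAP3, KDELR2 and PYCR1. Such values belong to all names of the locus.

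The ATF6 targets had the highest median of the 8 lists. All 14 tested were higher, with a median log2 fold change of 1.38 in the authors' deposited table, and none was lower by DESeq at either the adjusted or the unadjusted threshold. CRELD2 and HERPUD1, a chaperone-like protein and a part of the degradation machinery, rose by 1.64 ± 0.04 and 1.60 ± 0.03 (log2 ± SE) in the deposited table. The abundant chaperones HSP90B1 and CALR rose by 1.34 ± 0.02 and 0.98 ± 0.02 there. The messenger of ATF6 itself, as given above, did not pass in the same table.

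Of 23 XBP1 targets, 21 were higher, with a median of 0.59 in the authors' deposited count table. DNAJB9 and DNAJC3, J-domain co-chaperones, rose by 1.50 and 1.47 on the log2 scale, each ± 0.03 (SE), PDIA6 by 1.02 ± 0.02 and the translocon subunit SEC61A1 by 0.69 ± 0.02, in the deposited table. SEC62, another translocon component named here after its value was seen, fell by 0.25 ± 0.03 there and did not pass in the deposited Cuffdiff table (-0.14, q = 0.179). KDELR3, a retrieval receptor, did not pass at -0.31 ± 0.18. By Cuffdiff's deposited q, 19 of the 23 XBP1 targets were higher and 0 lower, with 0 lower also at an unadjusted p under 0.05.

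Among 25 genes with the ERSE in a promoter window, 16 were tested. Of these, 12 were higher and 0 lower by DESeq in the authors' deposited table, with 1 lower at an unadjusted p under 0.05, beside 32.9% higher and 45.3% lower among abundant loci and 18.0% and 19.7% among all tested loci. Of the 16, 11 were abundant. The 12 include CALR, CRELD2, HSP90B1, HSPA5, PDIA6 and SERP1, which also stand in the lists of ATF6 or XBP1 targets. The count is therefore not independent of those lists. The median log2 fold change of the 16 was 0.76. XBP1, the only one of the 10 genes here with the element, is not among the 16, since it had no counted reads.

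The list of IRE1 splicing and control went both ways, with 7 of 16 higher and 5 lower in the authors' deposited count table. Its median was 0.04. Abundant loci there had shares of 32.9% higher and 45.3% lower and a median of -0.06, and the median over all tested loci was 0.05. Whether the list differs from these was not tested, so nothing particular to it is read from the mixed directions. Centred on abundant loci, 8 of the 16 were higher and 3 lower. By Cuffdiff's deposited q, 6 of these 16 were higher and 0 lower, with 2 lower at an unadjusted p under 0.05. RTCB, the ligase that rejoins the cut XBP1 messenger, had implied means of 4271 and 4275 normalized counts in the deposited table, a log2 difference of 0.00 ± 0.03 (SE), and its helicase partner DDX1 stood at -0.05 ± 0.02, neither past the threshold. The ligase subunits FAM98B and RTRAF fell by 0.46 and 0.16, each ± 0.04 (SE), and ZBTB8OS, which activates the ligase, rose by 0.27 ± 0.06 in the deposited count table, and none of these 3 passed in the deposited Cuffdiff table. The 5 ligase genes were named for their role after their values were seen. TMBIM6, an inhibitor of IRE1α, did not pass at -0.04 ± 0.02. The members with the largest rises, DNAJB9 and PDIA6, bind IRE1α and are also XBP1 targets.

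RIDD substrates, messengers that IRE1α is known to degrade directly, were few. Of 5 tested, 3 were lower and 0 higher by DESeq, also at an unadjusted p under 0.05, with a median of -0.24 in the authors' deposited count table. Among abundant loci 45.3% were lower in that table, and nothing particular to these genes is read from 3 of 5. SCARA3, a scavenger receptor family member, fell by 2.76 ± 0.15 (log2 ± SE), COL6A1, a collagen chain, by 0.38 ± 0.04 and HGSNAT, a lysosomal enzyme, by 0.24 ± 0.04 in the deposited table. BLOC1S1, the substrate most often used as a marker, did not pass at -0.07 ± 0.05, and its locus also holds RDH5. PDGFRB did not pass at 0.03 ± 0.46, on a mean of 16.0 counts.

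In the list of the PERK arm, which also holds the other eIF2α kinases, 10 of 16 were higher and 2 lower. The median was 0.34 in the authors' deposited count table. Both lower genes were such kinases, EIF2AK1 (-0.24 ± 0.03) and EIF2AK4 (-0.23 ± 0.04), named after their values were seen. The stress-induced factors ATF3 and CEBPB rose by 3.31 ± 0.10 and 2.64 ± 0.06 (log2 ± SE), and ATF4, which is controlled mainly in translation, by 0.36 ± 0.02 in the deposited table. EIF2AK2 (PKR), which also phosphorylates eIF2α but senses double-stranded RNA and is induced by interferon, rose by 1.22 ± 0.03 there. ATF3 and CEBPB are likewise induced by inflammatory signals outside this arm.

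Of 10 site protease substrates and regulators, 3 were higher and 5 lower, with a median of -0.09 in the authors' deposited count table. These are near the shares of 32.9% and 45.3% and the median of -0.06 among abundant loci, so the list as a whole does not stand apart. SREBF2, the sterol-regulated factor released by the same proteases, fell by 0.32 ± 0.02, while INSIG1, which retains it, rose by 0.58 ± 0.02 in the deposited table. CREBRF, which binds CREB3, rose by 1.16 ± 0.07, whereas CREBZF and the further family member CREB3L4 did not pass, at 0.02 ± 0.03 and -0.01 ± 0.10.

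The carrier genes between reticulum and Golgi were nearly uniform, with 13 of 14 higher and 0 lower by DESeq, also at an unadjusted p under 0.05, and a median of 0.34 in the authors' deposited count table. SEC24D and SEC31A, coat subunits with the highest means, rose by 0.41 and 0.43, each ± 0.02 (SE), SEC24A by 0.69 ± 0.04 and SEC16B, whose locus holds further names, by 1.69 ± 0.07 in the deposited table. SEC24B did not pass at -0.05 ± 0.04. By Cuffdiff's deposited q, 11 of the 14 carrier genes were higher and 0 lower, with 0 lower also at an unadjusted p under 0.05. Targets of the CREB3-type factors had 7 of 10 higher and 1 lower, with a median of 0.23 in the authors' deposited count table. Of these, HERPUD1 and COL1A1 rose most, the latter by 1.39 ± 0.06. The GOLGA3 locus, which also holds CHFR and ZNF605, rose by 0.12 ± 0.02 there but did not pass by Cuffdiff (q = 0.314). COPZ1 (0.05 ± 0.02) and COL1A2 (0.32 ± 0.37) did not pass. PYCR1, named after its value was seen and counted with MYADML2, fell by 0.69 ± 0.05. By Cuffdiff's deposited q, 5 of the 9 CREB3-type targets tested there were higher and 1 lower.

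**Figure D5:**
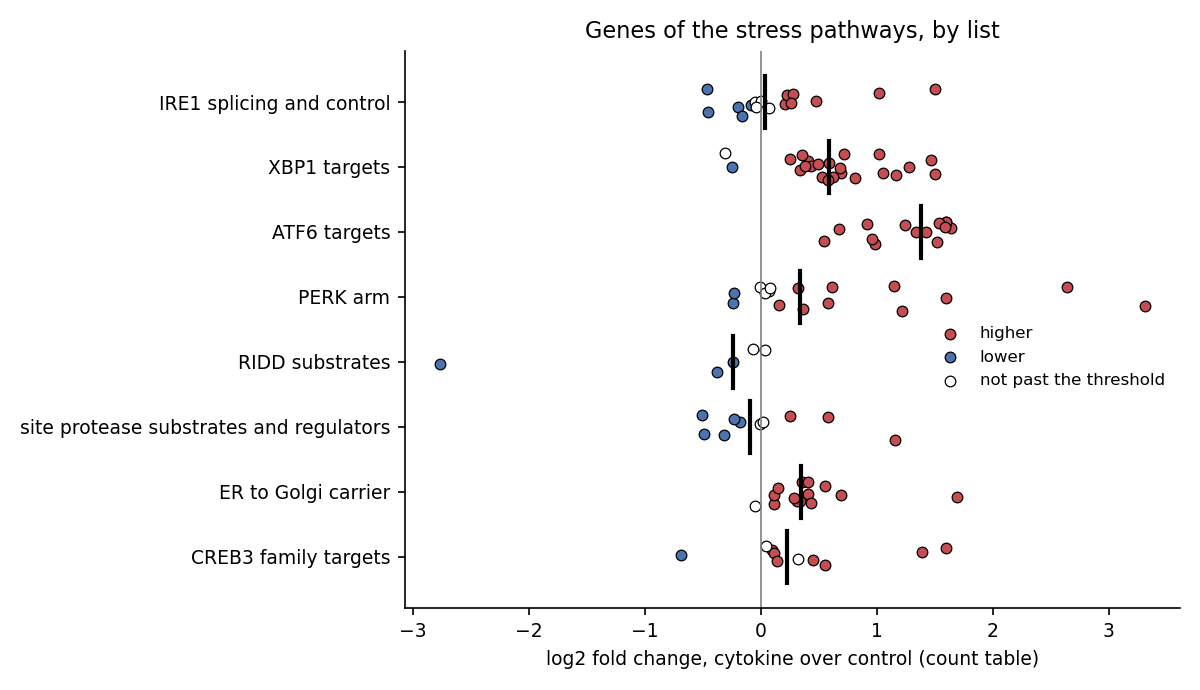
Log2 fold change of every tested gene in the 8 lists of the count table, red where higher, blue where lower and white where not past the threshold, with the median of each list as a black bar and vertical scatter only to separate points. All 14 ATF6 targets lie to the right of 0, and the lists of IRE1 splicing and control and of the site proteases lie on both sides.

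In bulk RNA, fewer cells of a type and less RNA per cell cannot be told apart, and this applies to every value above. Of 14 beta cell markers, 11 reached 10 FPKM in control in the authors' deposited FPKM table, while the bundle that holds INS is listed at 0 in both groups because the authors' tool left it out for excess data. PDX1 stood at 145.3 and 145.9 FPKM and NKX6-1 at 91.3 and 90.3 FPKM, whereas MAFA stood at 33.0 and 10.6, G6PC2 at 7.96 and 2.35 and SLC30A8 at 273 and 178 FPKM in the deposited table. The summed level of the list was 1434 FPKM in control and 1151 FPKM after exposure in the deposited table. Alpha, delta and PP cell markers summed to 36.8 and 46.3 FPKM, mostly from IRX2, and exocrine markers to 83.2 and 87.9 FPKM, from KRT19 and CPA1, with PRSS1 and CELA3A listed at 0. Leukocyte markers had CD3E at 0 and PTPRC at 0.0274 FPKM in control, and the list's sum of 363 and 337 FPKM came from the locus that CD68 shares with EIF4A1. Of 6 fibroblast and endothelial markers, 5 stayed under 1 FPKM in both groups, and the sum went from 3.42 to 7.77 FPKM with COL1A1. The part of these cell markers in the results was not tested. Summed over loci, the authors' deposited count tables give a mean depth of 4.09e+07 normalized counts a library.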

How the data were processed

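RNA of 3 control and 3 cytokine libraries was measured by poly(A) sequencing with directional libraries. Per the submitters' processing notes, reads were handled on hg38 with STAR 2.5.2b, bcl2fastq, StringTie and FastQC 0.10.1, and tests came from DESeq and Cuffdiff 2.2.1. No source used here names the counter, its strand setting or the annotation. The signal deposited by the authors is a mean normalized count over 6 libraries, per the file headers. The log2 values deposited by the authors are fold changes and their SE, and the score is their test statistic. The p-value, adjusted p and q columns are the authors' own, from DESeq and Cuffdiff, and the smallest Cuffdiff p was 5e-05. The authors' FPKM columns hold 1 Cuffdiff value per group, per the file headers.

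No value per library was used, so the planned tests on libraries were replaced by the authors' deposited tests at 0.05. Loci were matched by symbol, then by older symbols. Implied group means solve the deposited overall mean and fold change for equal group sizes, and 95% intervals from the deposited SE with a normal approximation. Centring used the median of loci with a mean of at least 1000, and its code was run on simulated data. Of these loci, 32.9% passed as higher and 45.3% as lower by the authors' deposited test. Whether their median marks unchanged loci was therefore not tested, and simulated data cannot decide it. In each list the text names the 2 genes with the highest mean, the 2 with the largest change past the threshold, and those not past it where they were 3 or fewer. Members and lists were chosen with earlier results of these data known. Coordinates are of GENCODE release 44. Scripts used matplotlib 3.10.9, scipy 1.17.1, numpy 2.4.6, pandas 2.3.3 and Python 3.11.15. Other thresholds, tools, centrings, filters and transcript sums were tried as alternatives. Of the loci, 17081 without reads and 14408 without an adjusted p were not tested.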

Additional observations from a re-analysis of the deposited data

How the results depend on the processing

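No paired analysis was possible because the deposited tables used here give no value per library, and for the same reason leaving out each replicate was not run. The 5 rises among counted genes held in direction under every setting tried, with 4 left at a mean of at least 100, where CREB3L1 drops out. The 3 lower calls were not stable: 0 were lower in the Cuffdiff gene table (1 at an unadjusted p under 0.05, and 5 calls in place of 8), 1 after re-centring on abundant loci and 1 among loci of 1 gene name. ATF6B, MBTPS1 and MBTPS2 stood at -0.16, -0.02 and -0.09 by Cuffdiff. The XBP1 log2 fold change was 0.91 in the gene row and 0.67 over named transcripts only, an alternative chosen after seeing the data.

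With Cuffdiff in place of the counts, lower calls over all lists went from 17 to 9, those of IRE1 splicing and control from 5 to 0 (6 calls in place of 12, and 2 lower at an unadjusted p under 0.05), of XBP1 targets from 1 to 0 (0 unadjusted) and of the site protease list from 5 to 3. Re-centring left 3 lower in the IRE1 list. Among loci of 1 gene name, the carrier list had 8 calls, all 8 higher, and the CREB3 target list 4, all 4 higher, with 0 lower; fewer loci were tested there. The cause of the differences between tools was not tested. Among the 10 genes, depth limits CREB3L1 most, with a mean of 68.4 counts, apart from XBP1, which had none.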
